A study of Homo sapiens with 9 samples.

Results

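The genes described are 41 interferon-stimulated genes, taken from a list of type I interferon response genes by their symbols. Each symbol matched 1 of the 58243 Ensembl gene identifiers in the files. Of the 41, 39 held enough counts to be tested, among 15163 tested genes in all. They were followed in 9 bulk RNA-seq libraries of DOHH2, a human lymphoma cell line of B-cell origin established from a follicular lymphoma that had transformed. There were 3 groups of 3 libraries. The culture group (day 0) was DOHH2 grown in culture and sampled on the day of grafting. The day 19 and day 40 groups were human CD20-positive cells sorted from femurs of RAGγc mice, an immunodeficient strain, that number of days after they received DOHH2 cells. Mouse stromal and endothelial cells were sorted from the same kind of femur, so the host kept these cells.

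All groups share a single cell line, so genetic variation between lymphomas was not sampled. Each library of a group carries its own date in its title. The labels give neither the age nor the number of mice behind a library. P-values measure only the spread among these samples, part of which may be technical. Femur cells went through enzymatic digestion, bead depletion of mouse CD45 and Ter119 cells and flow sorting, and no such steps are described for cultured cells. Handling and femur growth therefore cannot be told apart in comparisons with culture. Libraries held 21071239 to 29456271 counts. Levels are given as CPM, counts relative to the library size after scaling for library composition, in the order replicate 1, 2 and 3. A gene was called changed at an adjusted p under 0.05.

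Type I interferons bind the receptor formed by IFNAR1 and IFNAR2 and activate the kinases JAK1 and TYK2. These phosphorylate STAT proteins, and STAT2 joins IRF9 in the complex ISGF3. ISGF3 binds interferon-stimulated response elements in promoters and raises transcription of genes that restrict viruses, among them RNA sensors, IFIT proteins, MX GTPases and enzymes of ISG15 conjugation. IRF7 feeds back by raising interferon production. In B cells many of these genes are active at some level without infection.

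Promoter windows from RefSeq (GRCh38.p14, 250 bases before to 50 after a start site) were found for 33 of the 41 members. IFIT2, OASL, TRIM22, OAS2, MX2, USP18, IRF7 and LY6E had none. The letters GAAANNGAAA, the core of the response element, were searched on both strands and overlapping matches were counted. They occurred in a window of 22 of the 33 members (66.7%), against 1195 of 27305 genes with a window (4.38%). Counted by windows, 26 of 46 member windows (56.5%) and 1255 of 35116 windows of all genes (3.57%) held a match. TTCNNNGAA, the letters bound by STAT dimers, reads the same on both strands. It occurred in 10 of the 33 members (30.3%) and in 9.38% of all genes with a window. A match is a description of these letters and does not show binding.

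The 250 bases before the start site are shown for members with different time courses, with the matches to GAAANNGAAA on either strand in capitals. For each gene the first window that held a match was chosen. PARP9 also had a window at chr3:122564735-122565034 that held none. PARP9 (chr3:122564301-122564550, minus strand) and PARP14 (chr3:122680589-122680838, plus strand) were high at both femur times. IFI44L (chr1:78620198-78620447, plus strand) was high at day 40, and BST2 (chr19:17405631-17405880, minus strand) was lower in femur than in culture.
PARP9: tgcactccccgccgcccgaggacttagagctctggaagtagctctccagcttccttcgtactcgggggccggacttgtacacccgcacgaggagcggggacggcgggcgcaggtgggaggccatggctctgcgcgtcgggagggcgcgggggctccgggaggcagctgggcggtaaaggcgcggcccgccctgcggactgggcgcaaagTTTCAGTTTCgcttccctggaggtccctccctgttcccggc
PARP14: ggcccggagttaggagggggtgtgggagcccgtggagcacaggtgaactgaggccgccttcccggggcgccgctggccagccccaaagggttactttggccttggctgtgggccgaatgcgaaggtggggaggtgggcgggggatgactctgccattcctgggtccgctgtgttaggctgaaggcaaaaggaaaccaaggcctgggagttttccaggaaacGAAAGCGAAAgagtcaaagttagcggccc
IFI44L: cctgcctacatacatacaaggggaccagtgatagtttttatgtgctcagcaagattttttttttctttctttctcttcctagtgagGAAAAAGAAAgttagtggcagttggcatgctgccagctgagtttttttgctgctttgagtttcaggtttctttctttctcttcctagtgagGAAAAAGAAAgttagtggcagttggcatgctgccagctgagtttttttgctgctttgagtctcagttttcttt
BST2: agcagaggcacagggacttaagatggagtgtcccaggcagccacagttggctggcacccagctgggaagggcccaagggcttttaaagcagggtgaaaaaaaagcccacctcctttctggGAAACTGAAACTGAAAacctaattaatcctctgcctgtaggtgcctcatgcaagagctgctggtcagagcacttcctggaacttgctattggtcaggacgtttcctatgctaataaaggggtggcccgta

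The PARP9 match began 41 bases before the start site of the window shown. DTX3L is transcribed from the opposite strand, and its window shared 137 bases with that PARP9 window, the match included. The PARP14 match began 29 bases before the start. IFI44L had its 2 matches 164 and 73 bases before the start, 1 in each of 2 identical stretches of 85 bases whose first bases lay 91 bases apart. BST2 had overlapping matches 130 and 124 bases before the start. Among the other members that were lower at day 19, ISG20 held a match, IFI16, OAS1 and STAT2 held none in the windows searched, and LY6E had no window. HERC6, SAMD9L, XAF1, SP110, IFI35 and CMPK2, which were all higher at day 19, also held none.

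Per kilobase of annotated exon, BST2 and IFI16 were the highest members in culture, at 90.5 and 85.7 CPM per kb, followed by LY6E at 43.5. TRIM22, STAT2 and ISG20 stood at 13.8, 12.5 and 10.4 CPM per kb. None of these 6 changed by 2-fold or more in a comparison with culture. Among the tested members, IFIH1, HERC6, MX1, IFIT5 and XAF1 were the lowest, at 0.00297, 0.00485, 0.0235, 0.0377 and 0.0456 CPM per kb in culture. By day 40 PARP14 had reached 9.11, OAS2 10.7 and IRF7 11.4 CPM per kb, while BST2, IFI16 and LY6E remained the highest at 75.9, 68.3 and 45.4.

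**Figure D1:**
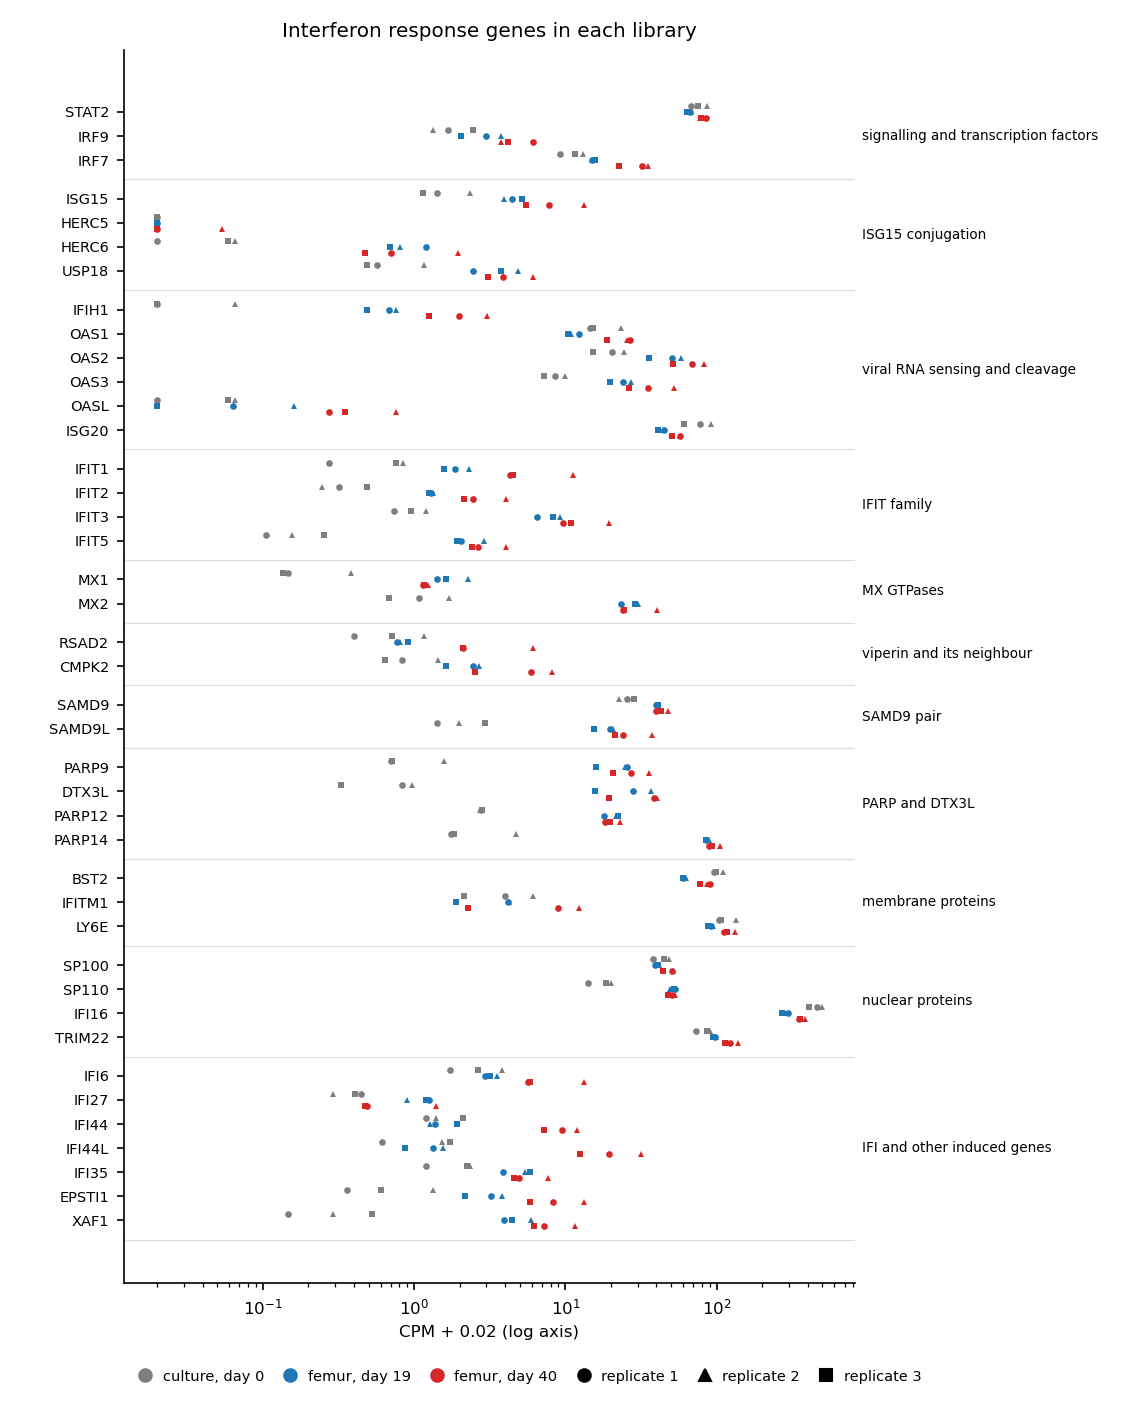
Level of each of the 41 members in every library, grouped by role, with CPM + 0.02 on a log axis. Colour gives the group and marker shape the replicate. PARP9, DTX3L and PARP14 separate widely between culture and femur, IFI44 and IFI44L separate only at day 40, and IFI16 lies furthest right in culture, followed by LY6E and BST2.

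The first question was how these genes differed after growth in the femur. At day 19, 25 of the 39 tested members were higher than in culture, where 26.3% of all 15163 genes were called higher. The 6 lower members were STAT2, OAS1, ISG20, BST2, LY6E and IFI16, where 26.5% of all genes were called lower. The remaining 8 were not called. The median log2 fold change of the members was 1.46, against 0.01 over all genes tested. Of the members that rose, 23 did so by at least 2-fold, as did 10.8% of all genes, and no member fell by that much, against 5.72% of all genes. In bulk libraries, fewer cells that express a gene and less RNA per cell cannot be told apart.

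At day 40, 30 of the 39 members were higher than in culture (23.3% of all genes were called higher) and ISG20, BST2 and IFI16 were lower (23.3% of all genes were called lower). The other 6, STAT2, LY6E, SP100, OAS1, IFITM1 and IFI27, were not called. The median log2 fold change was 2.47, against 0.01 over all genes, and 28 members rose by at least 2-fold, as did 9.34% of all genes. No member fell by that much at day 40, against 3.46% of all genes. The day 19 and day 40 comparisons share the 3 culture libraries. All 30 rises at day 40 were called in each of 17 alternative analyses, and so were 22 of the 25 rises and 5 of the 6 falls at day 19. The day 19 exceptions were IRF7, CMPK2, IFIT1 and STAT2.

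**Figure D2:**
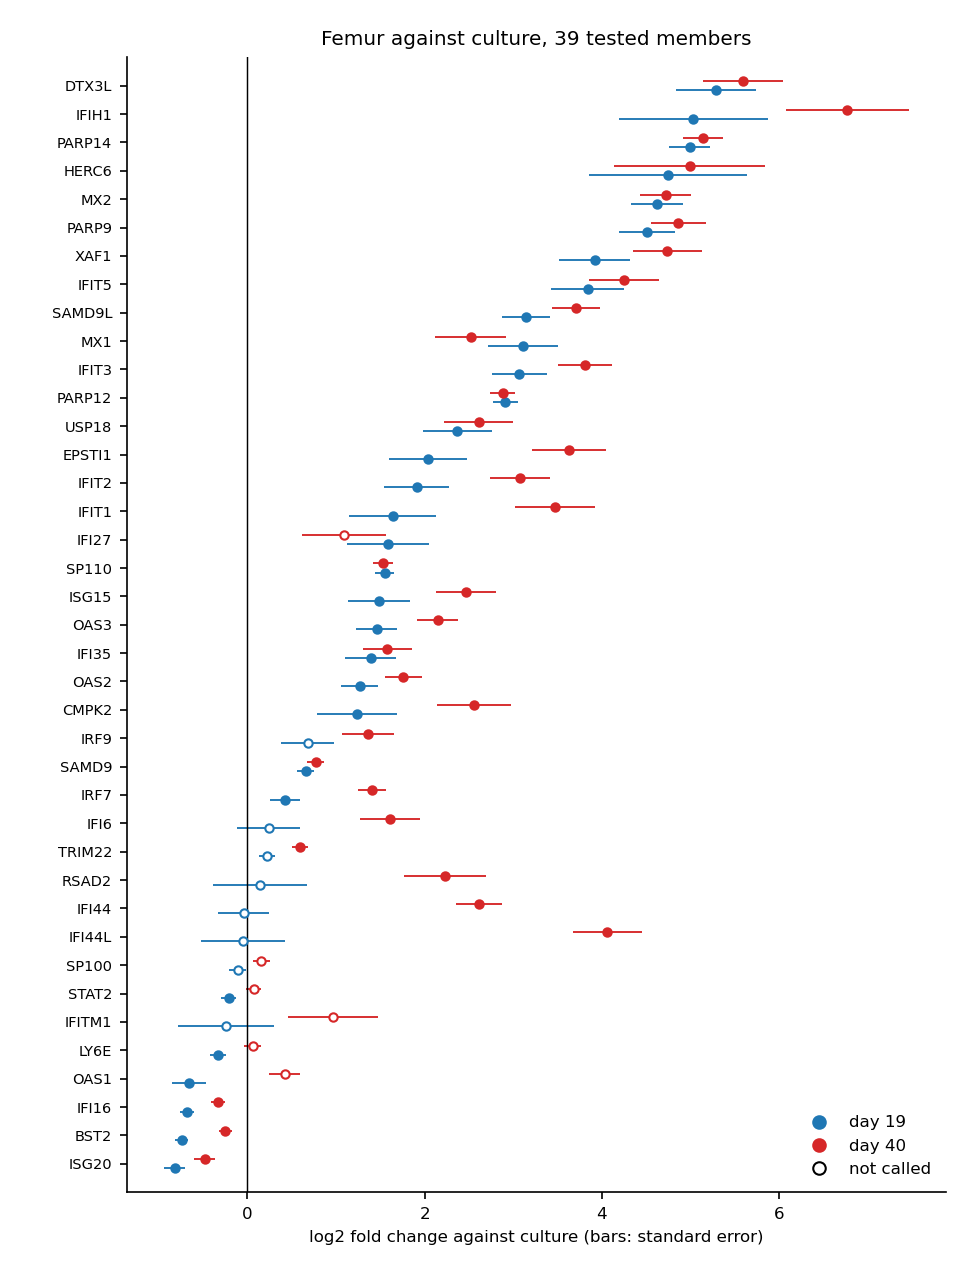
Log2 fold change against culture for the 39 tested members at day 19 (blue) and day 40 (red), with standard errors as bars and open points where the adjusted p was not under 0.05. Members from DTX3L to IFIT5 lie near or above 4 at both times, while IFI44L and IFI44 are near 0 at day 19 and at 4.06 and 2.61 at day 40.

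The largest rises at day 19 with ample counts were in the PARP and DTX3L group, in which all 4 members rose at both times. PARP9 is a macrodomain protein that pairs with the ubiquitin ligase DTX3L, while PARP14 and PARP12 are ADP-ribosyltransferases. PARP14 (chromosome 3, 122680618 to 122730840) had 1.74, 4.69 and 1.82 CPM in culture, 84.5, 88.9 and 84.8 at day 19 and 88.5, 105 and 93.7 at day 40. The femur libraries lay close together and far above all culture libraries. Its change was 4.99 (SE 0.23, adjusted p = 9.24e-09) at day 19 and 5.14 (SE 0.23, adjusted p = 1.3e-08) at day 40, as log2 fold changes. DTX3L (chromosome 3, 122564238 to 122575203) went from 0.806, 0.956 and 0.31 CPM in culture to 27.8, 36.7 and 15.8 at day 19 and 38.4, 40.3 and 19.5 at day 40. Replicate 3 was the lowest library of DTX3L in all groups. The log2 fold changes were 5.29 (SE 0.45, adjusted p = 1.41e-06) and 5.59 (SE 0.45, adjusted p = 1.51e-06).

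PARP9 (chromosome 3, 122527924 to 122564577) had 0.679, 1.55 and 0.698 CPM in culture, 25.5, 24.6 and 16 at day 19 and 27.3, 35.6 and 20.6 at day 40 (log2 fold change 4.51, SE 0.32, adjusted p = 2.62e-07 at day 19; 4.86, SE 0.31, adjusted p = 2.42e-07 at day 40). No femur library came near the culture libraries. PARP9 and DTX3L share 217 exon bases on opposite strands, and the strand setting of the counts is not given, so reads from that stretch cannot be assigned to either. PARP12 moved by less, from 2.75 ± 0.0532 CPM in culture to 20.6 ± 2.38 at day 19 and 20.3 ± 2.4 at day 40 (SD, n = 3), with little spread in any group.

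The MX genes encode dynamin-like GTPases that block incoming viruses. MX2 (chromosome 21, 41361943 to 41409390) had 1.06, 1.69 and 0.659 CPM in culture, 23.1, 30.2 and 29 at day 19 and 23.8, 40.2 and 24.5 at day 40. Its log2 fold changes were 4.62 (SE 0.29, adjusted p = 1e-07) and 4.72 (SE 0.29, adjusted p = 1.61e-07), and the lowest femur library was far above the highest culture library. MX1, its neighbour on chromosome 21, stayed low, at 0.127, 0.364 and 0.116 CPM in culture, 1.41, 2.23 and 1.61 at day 19 and 1.12, 1.21 and 1.15 at day 40. MX1 rose against culture at both times (log2 fold changes 3.11 and 2.52). All of its day 40 libraries were below all of its day 19 libraries, a difference that was not called (log2 fold change -0.59, 95% interval -1.24 to 0.06, adjusted p = 0.36).

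IFIT proteins bind viral RNA with foreign ends, and all 4 genes rose at both times. IFIT5 (chromosome 10, 89414586 to 89421001) had 0.0849, 0.137 and 0.233 CPM in culture, 2.02, 2.89 and 1.9 at day 19 and 2.61, 4.06 and 2.38 at day 40. Its log2 fold changes were 3.84 (SE 0.41, adjusted p = 9.05e-06) and 4.25 (SE 0.40, adjusted p = 4.99e-06), the largest of the family. IFIT3 was the most abundant of the 4 per kilobase in femur, at 3.02 and 5.03 CPM per kb. It went from 0.721, 1.18 and 0.93 CPM to 6.46, 9.13 and 8.29 at day 19 and 9.64, 19.4 and 10.8 at day 40. IFIT1 and IFIT2 had smaller changes at day 19 (log2 fold changes 1.64 and 1.91) than at day 40 (3.47 and 3.08). The IFIT1 call at day 19 was lost without culture replicate 1 (log2 fold change 1.28). IFIT2 shares 65 exon bases with LIPA on the opposite strand, which had 58.7, 21.3 and 28.8 CPM in culture, day 19 and day 40.

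XAF1, which encodes an antagonist of the apoptosis inhibitor XIAP, lies at chromosome 17, 6755447 to 6775647. It had 0.127, 0.273 and 0.504 CPM in culture, 3.91, 5.91 and 4.4 at day 19 and 7.21, 11.6 and 6.19 at day 40. All femur libraries were far above culture, with log2 fold changes of 3.92 (SE 0.40, adjusted p = 6.07e-06) and 4.74 (SE 0.39, adjusted p = 1.67e-06). XAF1 shares 2535 exon bases with PRAL on the opposite strand, which was itself at 0, 0.0451 and 0.0946 CPM in the 3 groups.

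Among genes of viral RNA sensing and cleavage, IFIH1 (chromosome 2, 162267079 to 162318703), which encodes the double-stranded RNA sensor MDA5, was close to silent in culture. It had 1 count in the 3 culture libraries together, in replicate 2, against 42 at day 19 and 174 at day 40. The fitted log2 fold changes, 5.03 (SE 0.84, adjusted p = 0.000339) and 6.77 (SE 0.69, adjusted p = 1.1e-05), depend on the prior count of the fit. The ratios of CPM were 44.1 (95% counting interval 7.5 to 1780) at day 19 and 152 (26.9 to 6020) at day 40. In CPM, IFIH1 reached 0.659, 0.745 and 0.465 at day 19 and 1.96, 3.02 and 1.23 at day 40.

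The OAS enzymes make oligoadenylates that activate RNase L. OAS2 and OAS3 rose at both times, OAS2 from 20.3, 24.4 and 15.3 CPM in culture to 51, 57.8 and 35.8 at day 19 and 68.2, 82.3 and 51.2 at day 40. OAS1 (chromosome 12, 112906777 to 112933222), next to OAS3, had 14.6, 23.4 and 15.2 CPM in culture, 12.4, 10.8 and 10.4 at day 19 and 26.7, 25.6 and 18.7 at day 40. Its day 19 libraries were all below the culture libraries (log2 fold change -0.66, SE 0.19, adjusted p = 0.00994), whereas the day 40 libraries overlapped those of culture (log2 fold change 0.42, 95% interval 0.03 to 0.80, adjusted p = 0.0714, not called). ISG20 (chromosome 15, 88636153 to 88656483), an RNA exonuclease, had 77.2, 92.2 and 60.9 CPM in culture, 44.9, 44 and 41.2 at day 19 and 57.4, 56.9 and 51 at day 40. All femur libraries were below all culture libraries, and the log2 fold changes were -0.82 (SE 0.12, adjusted p = 0.000127) and -0.48 (SE 0.12, adjusted p = 0.00614). OASL, an inactive relative of the OAS enzymes, did not pass the filter on low counts. Its counts summed to 2 over the culture libraries, 4 over day 19 and 37 over day 40, a CPM ratio of day 40 to culture of 16.1 (95% counting interval 4.16 to 138). Without that filter edgeR called it higher at day 40 than in culture (adjusted p = 0.000111) and than at day 19 (adjusted p = 0.00781), and DESeq2 called it higher than in culture (adjusted p = 0.0123).

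ISG15 is a ubiquitin-like protein, HERC5 is its main ligase in human cells, HERC6 is a relative of HERC5, and USP18 removes ISG15 and restrains the receptor. ISG15 had 1.4, 2.32 and 1.12 CPM in culture, 4.44, 3.91 and 5.16 at day 19 and 7.79, 13.3 and 5.45 at day 40, with replicate 2 the highest at day 40. USP18 had 0.552, 1.14 and 0.465 CPM in culture, 2.42, 4.84 and 3.76 at day 19 and 3.84, 6.1 and 3.07 at day 40. Both rose at both times, with log2 fold changes of 1.49 and 2.47 for ISG15 and 2.37 and 2.61 for USP18. HERC6 (chromosome 4, 88378739 to 88443111) had 2 counts over the culture libraries, 60 at day 19 and 88 at day 40. Its fitted log2 fold changes were 4.75 (SE 0.89, adjusted p = 0.000741) and 4.99 (SE 0.85, adjusted p = 0.000548), and its ratios of CPM were 31.5 (95% counting interval 8.36 to 266) and 38.4 (10.3 to 322). HERC5, 14 kb away, had 1 count in all 9 libraries together, in day 40 replicate 2.

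STAT2 and IRF9 are subunits of ISGF3. STAT2 (chromosome 12, 56341597 to 56360155) had 67.8, 86.2 and 75.7 CPM in culture, 66.5, 68.1 and 63.8 at day 19 and 84.8, 77.5 and 79 at day 40. Its fall at day 19 (log2 fold change -0.21, SE 0.08, adjusted p = 0.0481) was small, the libraries of the groups overlapped, and it was called in 6 of 17 alternative analyses. Leaving out culture replicate 2 or 3, any day 19 library, or day 40 replicate 2 or 3 ended the call (log2 fold change -0.24 to -0.13). IRF9 had 1.66, 1.32 and 2.44 CPM in culture, 2.99, 3.73 and 2.03 at day 19 and 6.12, 3.72 and 4.18 at day 40. It was higher at day 40 (log2 fold change 1.36) and was not called at day 19 (log2 fold change 0.68, 95% interval 0.02 to 1.33, adjusted p = 0.0764). It shares 1838 exon bases with AL136295.5 on the same strand. IRF7, the factor that amplifies interferon production, had 9.21, 13.1 and 11.6 CPM in culture, 14.9, 14.9 and 15.7 at day 19 and 32.1, 35.2 and 22.4 at day 40. Its log2 fold change was 0.43 at day 19 and 1.41 at day 40. The day 19 call was made in 10 of 17 alternatives and ended when any single day 19 library, culture replicate 1 or 3, or day 40 replicate 1 was dropped (log2 fold change 0.30 to 0.44).

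None of the 3 membrane proteins was called higher than in culture. BST2 (chromosome 19, 17402939 to 17405648), the tetherin that holds budding virus at the cell surface, had 95.3, 109.7 and 98.8 CPM in culture, 59.8, 62.5 and 60.1 at day 19 and 90.5, 86.5 and 77.9 at day 40. The groups did not overlap, and the log2 fold changes were -0.74 (SE 0.07, adjusted p = 6.11e-06) and -0.25 (SE 0.07, adjusted p = 0.0141). The day 40 call was lost without day 40 replicate 3 (log2 fold change -0.19) and with scaling by total library size (-0.17). LY6E (chromosome 8, 143017982 to 143023832), a lipid-anchored surface protein, had 104, 133 and 107 CPM in culture, 92.2, 94 and 87.5 at day 19 and 111, 131 and 117 at day 40. It was lower at day 19 (log2 fold change -0.33, SE 0.09, adjusted p = 0.0107) and was not called at day 40 (log2 fold change 0.06, 95% interval -0.14 to 0.27, adjusted p = 0.615). IFITM1, which blocks fusion of viral and cell membranes, varied widely, at 3.95, 6.06 and 2.13 CPM in culture, 4.18, 4.19 and 1.86 at day 19 and 8.95, 12.3 and 2.25 at day 40. It was not called against culture at day 19 (log2 fold change -0.24, 95% interval -1.41 to 0.92, adjusted p = 0.728) or at day 40 (log2 fold change 0.97, 95% interval -0.13 to 2.08, adjusted p = 0.135). Without day 40 replicate 3 the day 40 difference was 1.41 and was called, and with that replicate as the sole day 40 library it was -0.84 and was not. IFITM1 shares 351 exon bases with its paralog IFITM2.

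Of the nuclear proteins, IFI16 (chromosome 1, 158999968 to 159055155), a sensor of DNA, had the highest CPM of all members. It had 459.6, 495 and 407 CPM in culture, 296, 282 and 271 at day 19 and 347, 384 and 354 at day 40. All femur libraries were below culture, with log2 fold changes of -0.68 (SE 0.08, adjusted p = 1.9e-05) and -0.33 (SE 0.08, adjusted p = 0.00487). The nuclear body protein SP110 rose from 17.6 ± 3.12 CPM to 51.3 ± 1.97 at day 19 and 50.5 ± 2.9 at day 40 (SD, n = 3). It shares exon bases with 2 genes on the opposite strand. The overlap was 170 bases with SP140, which went from 7.09 to 24.0 and 33.8 CPM. With AC009950.1 it was 1262 bases, and that gene went from 0.176 to 2.78 and 2.74 CPM. SP100, 190 kb from SP110, had 43.6 ± 5.31, 40.5 ± 1.37 and 48.9 ± 3.97 CPM (SD, n = 3) and was not called. TRIM22, a ubiquitin ligase, rose at day 40 (log2 fold change 0.59), while its day 19 difference was 0.22 (95% interval 0.03 to 0.42, adjusted p = 0.0532).

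The SAMD9 pair, which restricts poxviruses, rose at both times. SAMD9 had 25.5, 22.5 and 28.5 CPM in culture, 39.7, 40.5 and 40.9 at day 19 and 39.9, 47.9 and 43.1 at day 40 (log2 fold changes 0.66 and 0.77). SAMD9L started lower, at 1.4, 1.96 and 2.91 CPM, and reached 19.8, 20.6 and 15.5 at day 19 and 24, 37.6 and 21.1 at day 40 (3.14 and 3.71). In the last group, of IFI and other induced genes, 4 of 7 rose at day 19 and 6 of 7 at day 40, and none fell. IFI35, a leucine zipper protein that binds NMI, had 1.19, 2.32 and 2.21 CPM in culture, 3.87, 5.36 and 5.83 at day 19 and 4.89, 7.61 and 4.55 at day 40. It was higher at both times (log2 fold changes 1.39 and 1.58). IFI27 had 0.424, 0.273 and 0.388 CPM in culture, 1.23, 0.885 and 1.18 at day 19 and 0.471, 1.38 and 0.451 at day 40, and only replicate 2 was as high at day 40 as at day 19.

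Between the femur times, the question was whether the members went on changing after day 19. At day 40, 14 of the 39 members were higher than at day 19 (3.23% of all genes were called higher), and none was called lower by edgeR, DESeq2 or limma voom (1.45% of all genes were called lower by edgeR). At an unadjusted p under 0.05 the edgeR counts were 26 higher and 0 lower, against 9.78% and 6.94% of all genes. DESeq2 called 18 members higher (4.03% of all genes) and limma voom 12 (2.82%). By edgeR, 9 of the 14 rose by at least 2-fold, as did 1.04% of all genes, and none fell by that much, against 0.244% of all genes. The median log2 fold change was 0.48, against 0.0 over all genes. For 21 members every day 40 library was above every day 19 library, where this held for 14% of all genes. The count depended on single libraries. The number higher was 6, 5 and 5 without day 19 replicates 1, 2 and 3, and 5 without day 40 replicate 2. The share of all genes called higher was then 2.14%, 1.42%, 1.4% and 1.86%. Only IFI44L and IFI44 were called in all 17 alternatives, and the other 12 in 10 to 16 of them.

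IFI44L (chromosome 1, 78619922 to 78646145), a gene of unsettled function that is widely used as a readout of interferon signalling, had 0.594, 1.5 and 1.71 CPM in culture, 1.32, 1.54 and 0.846 at day 19 and 19.5, 31.7 and 12.5 at day 40. Culture and day 19 overlapped, and all day 40 libraries were far above both. The change between the femur times was 4.11 (SE 0.39, adjusted p = 0.000152), and that of day 19 against culture was -0.05 (95% interval -1.07 to 0.96, adjusted p = 0.934). Its paralog IFI44 (chromosome 1, 78649796 to 78664078), 3.65 kb away on the same strand, had 1.19, 1.37 and 2.09 CPM in culture, 1.36, 1.26 and 1.9 at day 19 and 9.42, 12 and 7.21 at day 40. Again only the day 40 libraries stood apart, with 2.65 (SE 0.26, adjusted p = 0.000169) between the femur times and -0.04 (95% interval -0.68 to 0.59, adjusted p = 0.913) at day 19 against culture.

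RSAD2 (chromosome 2, 6865806 to 6898239), which encodes the radical SAM enzyme viperin, had 0.382, 1.14 and 0.698 CPM in culture, 0.748, 0.792 and 0.888 at day 19 and 2.1, 6.13 and 2.09 at day 40 (log2 fold change 2.09, SE 0.46, adjusted p = 0.0224 between the femur times). Day 40 replicate 2 was the highest by a wide margin. Against culture, RSAD2 was not called at day 19 (log2 fold change 0.14, 95% interval -1.02 to 1.3, adjusted p = 0.841). CMPK2, its neighbour, encodes a mitochondrial nucleotide kinase and had 0.806, 1.41 and 0.62 CPM in culture, 2.42, 2.65 and 1.61 at day 19 and 5.87, 8.18 and 2.5 at day 40. The femur groups of CMPK2 overlapped, and the difference was not called (log2 fold change 1.32, 95% interval 0.48 to 2.15, adjusted p = 0.0792). CMPK2 was higher than culture at both times, but its day 19 call was made in 12 of 17 alternatives and ended without culture replicate 1 or 3 or day 19 replicate 1 or 2 (log2 fold change 0.99 to 1.18).

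IFIT1 (chromosome 10, 89392546 to 89406486) had 0.255, 0.82 and 0.736 CPM in culture, 1.85, 2.28 and 1.56 at day 19 and 4.31, 11.3 and 4.51 at day 40 (log2 fold change 1.83, SE 0.39, adjusted p = 0.0188). Each group was clear of the one before it, and day 40 replicate 2 stood apart. IFIT2 (chromosome 10, 89283694 to 89309276) had 1.27, 1.3 and 1.23 CPM at day 19 and 2.43, 4.02 and 2.13 at day 40 (log2 fold change 1.18, SE 0.29, adjusted p = 0.0354). IFIH1 also rose between the femur times (log2 fold change 1.74, SE 0.38, adjusted p = 0.0219). EPSTI1 (chromosome 13, 42886388 to 42992271), an epithelial-stromal interaction gene, had 0.34, 1.32 and 0.581 CPM in culture, 3.21, 3.77 and 2.16 at day 19 and 8.22, 13.2 and 5.86 at day 40 (log2 fold change 1.59, SE 0.36, adjusted p = 0.0241). IFI6 (chromosome 1, 27666061 to 27672218), an inhibitor of apoptosis, had 1.7, 3.78 and 2.64 CPM in culture, 2.9, 3.49 and 3.17 at day 19 and 5.62, 13.2 and 5.82 at day 40 (log2 fold change 1.37, SE 0.34, adjusted p = 0.0389). Its culture and day 19 libraries overlapped.

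The other 6 calls between the femur times were OAS1 (log2 fold change 1.08), IRF7 (0.98), BST2 (0.48), LY6E (0.39), TRIM22 (0.36) and IFI16 (0.35). OAS1, BST2, LY6E and IFI16 were members lower at day 19 than in culture, and by day 40 the libraries of OAS1 and LY6E overlapped those of culture. BST2 and IFI16 remained called below culture at day 40. The day 19 libraries enter both differences. Of the 8 members with the largest rises at day 19, IFIH1 was called again between the femur times, while DTX3L, PARP14, HERC6, MX2, PARP9, XAF1 and IFIT5 were not. The difference between the femur times was 0.15 (95% interval -0.21 to 0.52, adjusted p = 0.743) for PARP14, 0.11 (95% interval -0.34 to 0.56, adjusted p = 0.873) for MX2 and 0.30 (95% interval -0.35 to 0.94, adjusted p = 0.709) for DTX3L. For SP110 and PARP12 it was -0.02 (95% interval -0.25 to 0.21, adjusted p = 0.952) and -0.02 (95% interval -0.27 to 0.23, adjusted p = 0.952). IFI27, which encodes a small membrane protein, was called higher than culture at day 19 only (1.59), and its difference between the femur times was -0.50 (95% interval -1.38 to 0.38, adjusted p = 0.622).

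**Figure D3:**
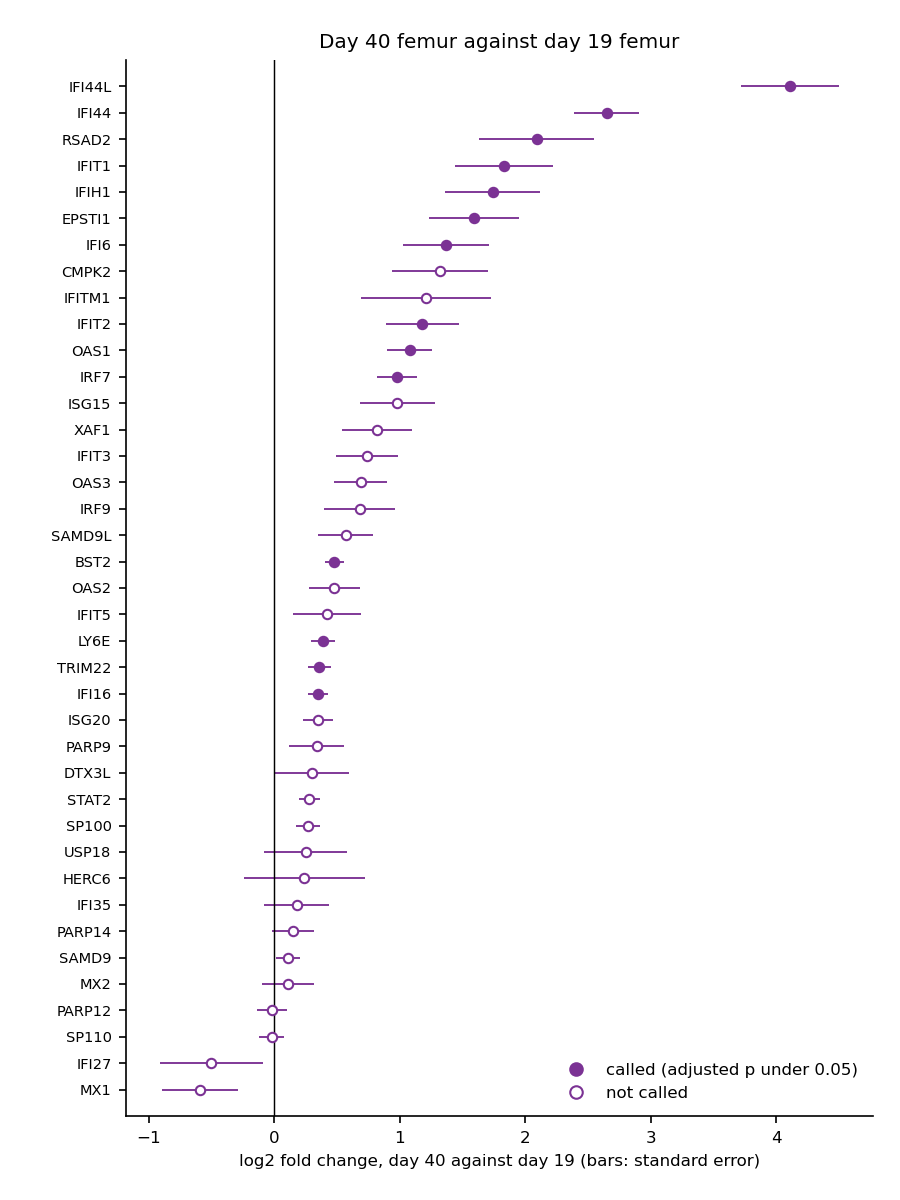
Log2 fold change of day 40 against day 19 for the 39 tested members, with standard errors as bars. Filled points are the 14 members called; IFI44L (4.11) and IFI44 (2.65) stand furthest to the right, and the members below 0 are all open points.

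Members that lie near each other did not all share a time course. On chromosome 3, PARP9, DTX3L and PARP14 all rose by at least 4.51 on the log2 scale at day 19. On chromosome 12, OAS1, OAS3 and OAS2 follow each other on the same strand with gaps of 5.13 and 5.14 kb, yet at day 19 their log2 fold changes were -0.66, 1.46 and 1.27. SAMD9 and SAMD9L, 12 kb apart, differed in their starting level, with 25.5 ± 3 and 2.09 ± 0.762 CPM in culture (SD, n = 3), or 3.72 and 0.293 CPM per kb. At day 40 they were at 6.36 and 3.86 CPM per kb. MX2 reached 2.26 CPM per kb at day 40 and MX1, 10.9 kb away, 0.135.

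**Figure D4:**
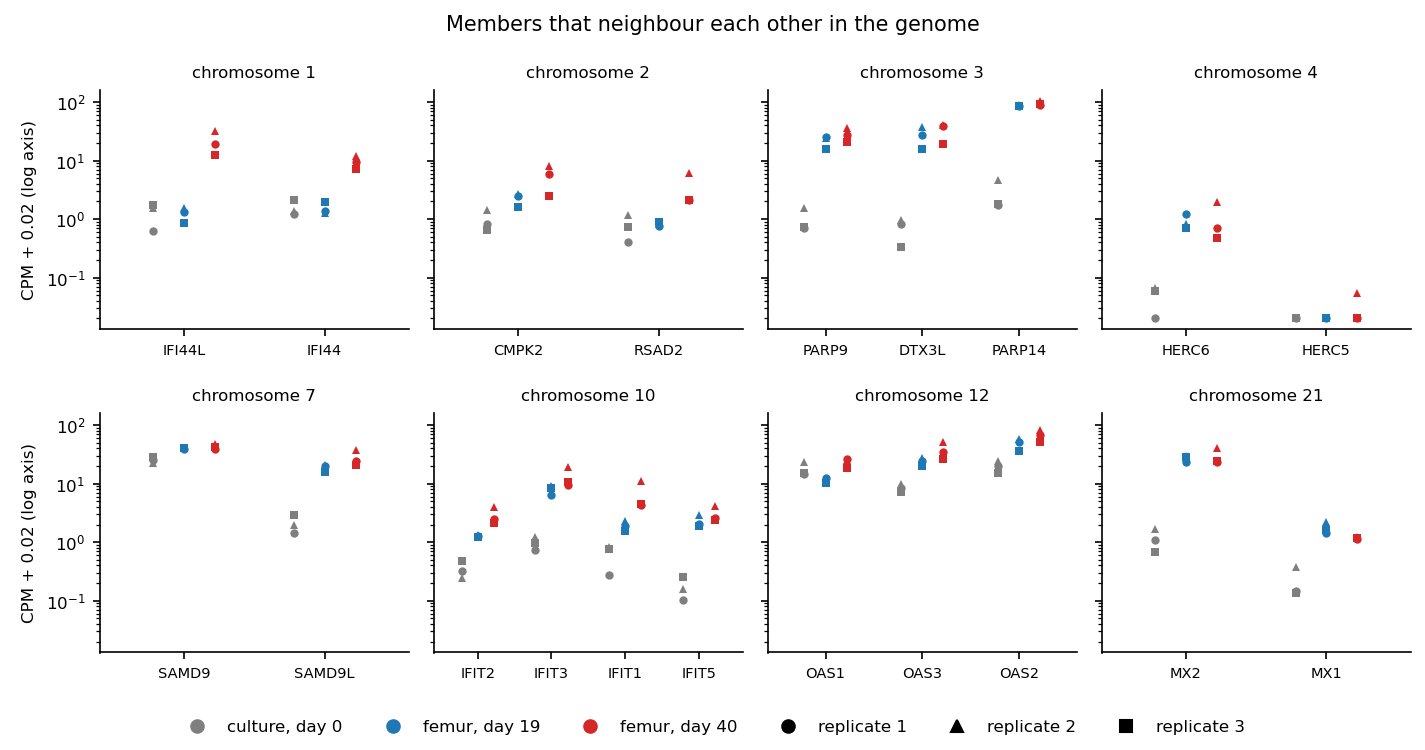
Levels (CPM + 0.02, log axis) of members that lie near each other, by chromosome, with colour for the group and marker shape for the replicate. DTX3L and PARP14 are 105 kb apart and IFIT3 and IFIT1 51.6 kb, with 1 coding gene between the members of each pair. IFI44L and IFI44 rise at day 40 alone, PARP9, DTX3L and PARP14 are far above culture at day 19 and day 40, and OAS1 dips at day 19 while OAS3 and OAS2 climb.

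The libraries of a group differed in a way that many members shared. Replicate 2 was the highest library for 29 of 39 members in culture, 25 at day 19 and 34 at day 40. Over all tested genes replicate 2 was highest for 43.6%, 32.5% and 34.1%. The lowest library was replicate 1 in culture (23 members) and replicate 3 at day 19 and day 40 (21 and 27). Over all tested genes these libraries were the lowest for 30.4%, 33.5% and 31.1%. In the day 40 libraries the members' median log2 level lay 1.77, 2.46 and 1.36 above the culture mean in replicates 1, 2 and 3. Replicate numbers and sampling periods follow the dates in the titles, which were read here as sampling dates. The titles do not say what the dates mark. By title date, day 19 libraries followed the culture library of their period by 18, 19 and 19 days, and day 40 libraries by 11, 26 and 39 days. If these are sampling dates, day 40 replicates 1 and 2 were not grafted on that culture date.

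Within the 3 sampling periods, the median difference between day 19 and culture over the members was 1.21, 1.08 and 0.92 on the log2(CPM + 0.5) scale. For day 40 against culture it was 1.82, 2.02 and 1.42, and for day 40 against day 19 it was 0.46, 0.51 and 0.37. With the sampling period as a term in the model, 21 members were higher at day 40 than at day 19, as were 4.3% of all genes. With day 40 replicate 3 as the sole day 40 library, an analysis chosen after seeing the data and the dates, IFI44L and IFI44 were the members called, among 0.508% of all genes. That fit assumes that the lone library varies like the others.

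**Figure D5:**
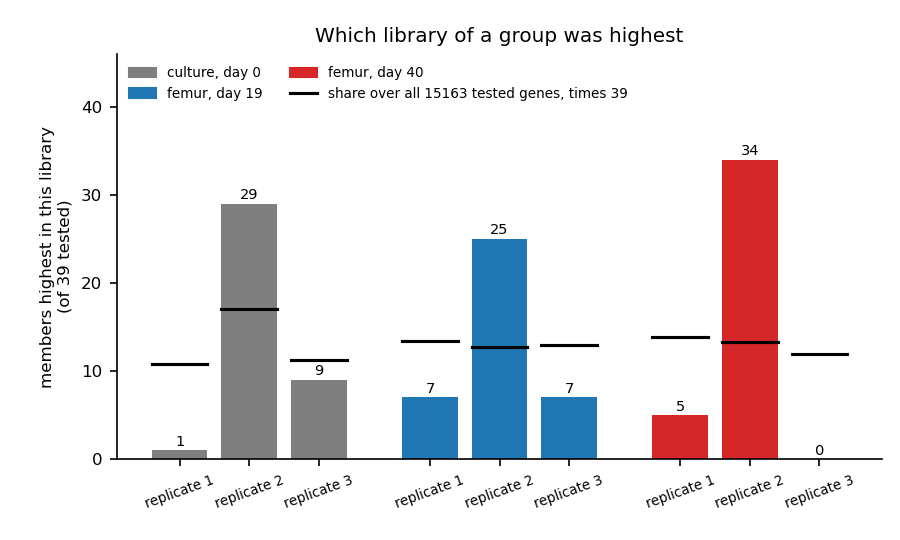
Number of the 39 tested members whose highest level within a group was in replicate 1, 2 or 3. Black lines give the share over all 15163 tested genes multiplied by 39; replicate 2 holds 29, 25 and 34 members, above its line in each group.

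The genes around the pathway were counted in lists by role. Their counts stand against 26.3% of all genes called higher and 26.5% lower at day 19, 23.3% in each direction at day 40, and 3.23% higher and 1.45% lower between the femur times. Of 21 interferon genes, 15 had 0 counts in all 9 libraries, which allows at most 3 counts each, and the list held 26 counts in total. IFNB1 had no count in culture, 2 at day 19 and 7 at day 40, of which 6 were in day 40 replicate 1. No interferon gene passed the filter on low counts. Of 6 receptor genes none rose, 3 fell at day 19 and 2 at day 40. IFNAR1 had 93, 99 and 83.1 CPM in culture, 70.0, 63.7 and 65 at day 19 and 66.2, 64.3 and 74.7 at day 40 (log2 fold changes -0.47, adjusted p = 0.000456, and -0.42, adjusted p = 0.0012). IFNAR2 was not called, at 38 ± 2.13, 38.6 ± 2.18 and 39.8 ± 2.18 CPM (SD, n = 3). IFNLR1, a receptor chain for type III interferon, fell at both times (-0.42 and -0.44), and the interferon gamma receptor chain IFNGR2 fell at day 19 (-0.24).

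In the list of JAK-STAT genes 5 of 10 rose and 2 fell at day 19, and 3 rose and 3 fell at day 40. JAK1 was not called, with log2 fold changes of -0.07 (95% interval -0.19 to 0.06, adjusted p = 0.333) at day 19 and 0.02 (95% interval -0.10 to 0.15, adjusted p = 0.748) at day 40. TYK2 was called higher at day 19 (0.22) and not at day 40 (log2 fold change 0.15, 95% interval 0.01 to 0.29, adjusted p = 0.0818). SOCS1 and PTPN6, which restrain JAK signalling, rose at both times, and STAT3 fell (-0.52 and -0.56).

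Among sensors and adaptors 5 of 13 rose and 2 fell at day 19, and 5 rose and 1 fell at day 40. The kinase gene IKBKE rose at both times, and TICAM1, the adaptor of TLR3, fell. TLR7, a receptor for single-stranded RNA, fell at day 19 (-1.51) and was higher at day 40 than at day 19 (1.21). ZBP1 had 1 count in culture, and then 32 at day 19 and 104 at day 40, ratios of 33.6 (95% counting interval 5.62 to 1370) and 90.6 (15.9 to 3610). Of 6 IRF factors other than the members, 4 rose and 1 fell at each time. IRF4, a factor of B-cell activation and plasma cell differentiation, had 0.212, 0 and 0 CPM in culture, 6.02, 8.47 and 3.17 at day 19 and 4.57, 7.75 and 3.85 at day 40. All its femur libraries were above culture, where 2 of 3 libraries held no count, and its fitted log2 fold changes were 6.29 (SE 0.69, adjusted p = 1.27e-05) and 6.17 (SE 0.69, adjusted p = 2.38e-05). IRF1, a factor induced strongly by interferon gamma, had 3.95, 4.1 and 4.03 CPM in culture, 51.4, 41.9 and 46.3 at day 19 and 58.7, 40.7 and 36.5 at day 40, with log2 fold changes of 3.53 and 3.49. IRF8, a B-cell and myeloid factor, fell (-0.92 and -0.56).

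Of 41 further interferon-stimulated genes tested, 27 rose and 6 fell at day 19, 27 rose and 4 fell at day 40, and between the femur times 5 rose and 2 fell. Their median log2 fold changes were 0.61, 0.8 and 0.04, against 1.46, 2.47 and 0.48 for the members. RNF213, a large ubiquitin ligase, had 0.509, 1.82 and 1.78 CPM in culture, 213, 232 and 231 at day 19 and 142, 172 and 145 at day 40. It was lower at day 40 than at day 19 (-0.56), as was PML (-0.37), while PLSCR1, LAP3 and HELZ2 were higher (0.83, 0.39 and 0.74). TRIM14, LGALS3BP and NUB1 were among the rises of smallest p against culture. In a list led by interferon gamma, 14 of 19 genes rose and 2 fell at each time, and between the femur times 2 rose and 1 fell. The medians were 1.16, 1.13 and -0.08. APOL6, APOL3, NLRC5 and PSMB9 had the smallest p against culture, and NLRC5, the activator of class I genes, fell between the femur times (-0.63). Some genes, IRF1, IRF8 and SOCS1 among them, stand in more than 1 list.

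The label of the cells was checked against marker genes. The 5 B-cell markers summed to 2660 to 3410 CPM in culture, 2070 to 2280 at day 19 and 2270 to 2450 at day 40. All 3 erythroid markers, the stromal markers COL1A2, COL3A1, LUM and CXCL12, the endothelial CDH5, the myeloid S100A8, S100A9 and FCGR3A and the plasmacytoid dendritic cell markers CLEC4C and GZMB had 0 counts in all 9 libraries. The 6 stromal markers summed to 0.0388 to 0.212 CPM in culture, 4.05 to 6.80 at day 19 and 3.44 to 4.57 at day 40. In femur most of it was PDGFRB (3.15 to 6.61 CPM). COL1A1 had 5 counts over the culture libraries, 8 over day 19 and 57 over day 40. Its day 40 counts were 39, 16 and 2 by replicate. The 6 myeloid markers summed to 2.63 to 5.00 CPM in culture, 4.80 to 5.94 at day 19 and 2.42 to 5.29 at day 40, most of it LYZ. CD14 had 2 counts over the culture libraries, 25 at day 19 and 22 at day 40, and CSF1R had 8, 2 and 6. The 4 plasmacytoid dendritic cell markers summed to 0.934 to 1.12, 1.80 to 2.14 and 1.41 to 2.25 CPM, nearly all of it IL3RA. The 4 T and NK cell markers summed to 2.67 to 3.82, 1.14 to 1.68 and 1.15 to 1.84 CPM. The 3 endothelial markers summed to 4.42 to 7.60, 1.61 to 3.12 and 3.28 to 4.24 CPM. The part of other cells, or of mouse reads counted as human, in the members' levels was not tested.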

How the data were processed

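The 9 deposited files hold whole-number read counts per gene, not normalized. FastQC 0.11.5, STAR 2.5.2a, featureCounts 1.4.6, DESeq2 1.40.1 and hg38 are named in the submitters' processing notes. Not given in the sources used here were the annotation, the strand setting and the handling of multi-mapped and mouse reads. Symbols and positions came from GENCODE release 29 (GRCh38).

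Counts were analysed in R 4.3.3 with edgeR 4.0.16: filterByExpr, TMM scaling and the two-sided quasi-likelihood F-test over all 9 libraries, with Benjamini-Hochberg adjustment over 15163 genes. Adjusted p-values are from this test. Alternatives included DESeq2 1.42.0, limma voom (limma 3.58.1), other scaling and leaving out each library. The procedure was tested on simulated data. Intervals of ratios (exact) and the 3 counts that a count of 0 allows cover counting error only. The members and lists were chosen with earlier results of these data known. All members could be named. Full statistics went to the 8 largest called changes per comparison and to members called lower. Outside the members, JAK1, TYK2, IFNAR1, IFNAR2 and up to 4 called genes per list and comparison were named, and 1 listed gene is counted but not reported here.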

Additional observations from a re-analysis of the deposited data

Results flagged for a closer look

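The effect against culture differed between day 19 and day 40 for 14 members, by the test of day 40 against day 19 in edgeR. The difference in log2 fold change was 4.11 for IFI44L, 2.65 for IFI44, 2.09 for RSAD2, 1.83 for IFIT1, 1.74 for IFIH1, 1.59 for EPSTI1, 1.37 for IFI6, 1.18 for IFIT2, 1.08 for OAS1, 0.98 for IRF7, 0.48 for BST2, 0.39 for LY6E, 0.36 for TRIM22 and 0.35 for IFI16. All 14 were higher at day 40. IFI44L, IFI44, RSAD2, IFI6 and TRIM22 had no called change at day 19 against culture, and OAS1, BST2, LY6E and IFI16 had been called lower there.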

How the results depend on the processing

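Against culture, the number of members higher stayed between 22 and 26 at day 19 and between 30 and 34 at day 40 over the 17 alternatives. The share of all genes called higher ran from 13.5% to 30.7% at day 19 and from 12.3% to 27.4% at day 40. No alternative reversed a direction of a called member. The number higher at day 40 than at day 19 was 14 in the main analysis (3.23% of all genes). It was 25 with no filter on low counts, where 2.88% of 30854 genes were called higher. Another alternative, chosen after seeing the data, kept day 40 replicate 3 as the sole day 40 library. The number was smaller there, and 7 members not called in the main analysis changed sign. Leaving out a library gave 5 to 18. The number was 10 without day 40 replicate 1, 17 without day 40 replicate 3 and 18 without culture replicate 2. The share of all genes called higher was then 1.82%, 2.97% and 4.85%. The cause was not tested. Scaling by total library size moved the split of all genes to 4652 higher and 3216 lower at day 19 (from 3994 and 4013) and to 4155 and 2650 at day 40 (from 3527 and 3538), with a median shift of 0.1 on the log2 scale. The members were then 26 higher and 5 lower at day 19 and 32 and 2 at day 40. HERC5 had an adjusted p only in the analysis without a filter on low counts. OASL had one there and, against culture, in DESeq2. Both genes had too few counts to pass that filter in the main analysis. With the sampling period as a block, which pairs libraries by title date, 21 members were higher between the femur times, as were 4.3% of all genes.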
